A study of Homo sapiens with 10 samples.

Results

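The 8 genes described here belong to cholesterol synthesis and its feedback control: the enzyme genes HMGCS1, IDI1, FDFT1, SQLE, LSS and DHCR7, and the regulators INSIG1 and SREBF2. They were chosen by gene name among the 62700 genes of the table, and all 8 passed the filter on low counts that left 18979 genes to be tested. The working name of the set also covers uptake of low-density lipoprotein, but no member acts in uptake, so the set is called cholesterol synthesis genes below. Polyadenylated RNA was sequenced from RPE p53-/- cells, an epithelial line of the human retinal pigment epithelium that carries the p53-/- genotype in both groups. The comparison sets 5 parental control libraries against 5 CCAR1 knockout libraries, all grown in DMEM/F12 with GlutaMAX and 10% fetal bovine serum. CCAR1 is a splicing and transcription co-regulator, and the study asked how its loss affects expression across the genome. The labels say neither that the replicates are separate cultures nor whether the knockout is 1 clone. The p-values therefore cover the spread among these libraries alone, possibly a technical one, and the genotypes may differ in other ways than CCAR1.

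Cells make cholesterol from acetyl-CoA through the mevalonate pathway, in which isoprenoid units are built, joined to squalene, closed into the first sterol ring system and trimmed to cholesterol. The pathway is controlled by the transcription factor SREBP2, which SREBF2 encodes. When sterols in the endoplasmic reticulum are low, the escort protein SCAP carries the SREBP2 precursor to the Golgi, where 2 proteases release the active factor. When sterols are high, INSIG proteins hold SCAP back. INSIG1 and the enzyme genes are themselves known targets of SREBP2, so their RNA levels usually rise and fall together with sterol demand, and serum in the medium supplies lipoprotein cholesterol.

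Library totals fell into 2 ranges that the labels do not name. Replicates 1 to 3 of both genotypes held 52.6 to 65.2 x 1e6 estimated counts, and replicates 4 and 5 held 320.6 to 385.4 x 1e6. These are called the shallow and the deep libraries. Fits of the deep libraries alone set 2 against 2, and their p-values cover only the spread within those pairs. Levels are given in CPM, counts per 1e6 of the library size scaled by the trimmed mean of M values (TMM). The targeted gene CCAR1 was at 125, 133, 134, 173 and 173 CPM in parental replicates 1 to 5 and at 92.3, 95.6, 88.5, 126 and 126 CPM in knockout replicates 1 to 5. Its RNA fell to 71.5% of the parental level (log2 fold change -0.48, SE 0.14, adjusted p = 0.0201), so transcript remained in every knockout library, and without parental replicate 5 the call was lost (log2 fold change -0.42, adjusted p = 0.0504). It was also lost with library size as the sole scaling (-0.42, adjusted p = 0.0525) and after subtracting the chromosome 10 median of -0.18 (-0.31, adjusted p = 0.121). The genotypes were apart within both depths, and CCAR1 was called lower in the fit blocked by replicate (-0.49, adjusted p = 2.16e-06), among shallow (-0.51, adjusted p = 1.19e-06) and among deep libraries (-0.48, adjusted p = 3.97e-11). The epithelial genes KRT8, KRT18, TJP1, CTNNB1 and EZR summed to 1980 to 2220 CPM in parental and 1220 to 1320 CPM in knockout libraries. EZR made up the difference (1240 ± 79 to 511 ± 36.1 CPM, SD, n = 5 each): without it the sums were 776 to 847 and 748 to 783 CPM and overlapped. Of the markers of the retinal pigment epithelium, 6 of 10 (RLBP1, TYR, TYRP1, PMEL, RGR and LRAT) were under 1 CPM in every library. Others were expressed: MITF had means of 39.1 CPM in parental and 38.3 CPM in knockout libraries, and SERPINF1 of 3.07 and 2.92 CPM. OTX2 rose from 10.9 ± 0.734 to 16.6 ± 1.43 CPM (SD, n = 5 each; log2 fold change 0.60, edgeR adjusted p = 0.000194). BEST1 (0.59, adjusted p = 0.0124) and LRAT (0.64, adjusted p = 0.0302) were also called higher, and MITF, SERPINF1 and PMEL were not called. Of 12 skeletal muscle markers 11 were found, and they summed to 272 to 578 CPM in the shallow and 9.97 to 23.6 CPM in the deep libraries; 12 hepatocyte markers summed to 35.2 to 104 CPM and 1.87 to 2.82 CPM in the same libraries, and erythroid markers to 2.2 to 5.46 CPM and 0.301 to 0.452 CPM. The sums of these 3 lists separated the depth ranges, and over all libraries the genotypes overlapped in each; within depths they did not always, since muscle (9.97 to 9.98 against 23.6 CPM) and hepatocyte sums (1.87 to 2.3 against 2.57 to 2.82 CPM) were higher in the knockout among deep libraries, and erythroid sums were lower in it among shallow (4.01 to 5.46 against 2.2 to 3.84 CPM) and higher among deep libraries. In the deep muscle sums TNNT1 made up the difference, at 9.44 and 9.49 CPM in parental and 23.2 and 23.1 CPM in knockout libraries. No other muscle marker exceeded 0.248 CPM there (TCAP). Hepatocyte markers moved both ways among deep libraries: CYP2E1 was higher in the knockout (0.325 and 0.292 against 0.811 and 0.675 CPM) and ALB lower (0.0397 and 0.0345 against 0.0233 and 0.00892 CPM). The part of these marker lists in the results below was not tested.

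In the CCAR1 knockout, the cholesterol synthesis genes did not move as a block. INSIG1 fell to 59.4% of the parental level and SREBF2 to 86.2%, while none of the 6 enzyme genes passed the test in the fit without a replicate block. The fit with the block also called IDI1 (-0.32, adjusted p = 0.000963) and SQLE (-0.19, adjusted p = 0.0135) lower. In RNA from whole cultures, fewer cells that express a gene and less RNA per cell cannot be told apart. Of the 8 genes, 0 rose and 2 fell in edgeR's quasi-likelihood test (25.0%), beside 36.6% of all genes tested (19.7% higher and 16.9% lower). At an unadjusted p under 0.05 the same counts were 0 and 2, beside 4517 higher and 3922 lower of the 18979 genes tested. DESeq2 and limma-voom each also called 0 higher and 2 lower. Over all genes tested, DESeq2 called 41.3% (20.5% higher and 20.8% lower) and limma-voom 38.1% (20.6% and 17.6%). The median log2 fold change of the 8 genes was -0.11, beside 0.02 over all genes tested. The share called was thus below that of all genes, and the counts single the set out in neither direction.

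The regulators come first. INSIG1 (ENSG00000186480.13, chromosome 7, 155297776 to 155310235, plus strand, hg38) encodes the endoplasmic reticulum protein that retains SCAP and that also brings sterol-regulated enzymes to degradation. Its level was 65.4, 88, 94.9, 111 and 113 CPM in parental replicates 1 to 5 and 57.7, 48.6, 53.5, 63.3 and 57.2 CPM in knockout replicates 1 to 5. Every knockout library lay below every parental library, although the highest knockout value (63.3 CPM) and the lowest parental value (65.4 CPM) were close. The mean fell from 94.4 ± 19.4 CPM to 56.1 ± 5.45 CPM (SD, n = 5 each), a 1.68-fold reduction (log2 fold change -0.75, SE 0.143, adjusted p = 0.002 in edgeR's quasi-likelihood test). A two-sided exact permutation test on log2 CPM gave p = 0.00794, the smallest that 5 against 5 libraries allow. INSIG1 was the only one of the 8 genes whose genotypes did not overlap over all 10 libraries, beside 30.6% of all genes tested.

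The INSIG1 reduction was present at both depths. Among shallow libraries its log2 fold change was -0.64 (edgeR adjusted p = 0.0143), and among deep libraries -0.91 (adjusted p = 4.09e-05). Genes of chromosome 7 as a whole were lower in the knockout, with a median log2 fold change of -0.30. With that median subtracted, INSIG1 stood at -0.45 and was still called (adjusted p = 0.0311). The part of the chromosome-wide difference in the change of INSIG1 was not tested.

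SREBF2 (ENSG00000198911.13, chromosome 22, 41833079 to 41907308, plus strand) encodes the SREBP2 precursor. It was at 167, 168, 185, 162 and 161 CPM in parental replicates 1 to 5 and at 168, 140, 149, 135 and 134 CPM in knockout replicates 1 to 5. The genotypes overlapped through knockout replicate 1, which was as high as the parental libraries, while the other 4 knockout libraries were below all 5 of them. The mean went from 168 ± 9.58 to 145 ± 14.1 CPM (SD, n = 5 each; log2 fold change -0.21, SE 0.0755, edgeR adjusted p = 0.0475, exact permutation p = 0.0317). This call was narrow: it was lost in 9 of 10 fits that left out 1 library, with adjusted p from 0.0581 to 0.108, and held only without knockout replicate 1. It was also lost with library size as the sole scaling (adjusted p = 0.117), with no filter (0.108) and with a 1 CPM filter (0.0789). It was called among the shallow (log2 fold change -0.19, adjusted p = 0.0275) and among the deep libraries (-0.28, adjusted p = 2.7e-08), and in the fit blocked by replicate number (-0.22, adjusted p = 0.00339).

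**Figure D1:**
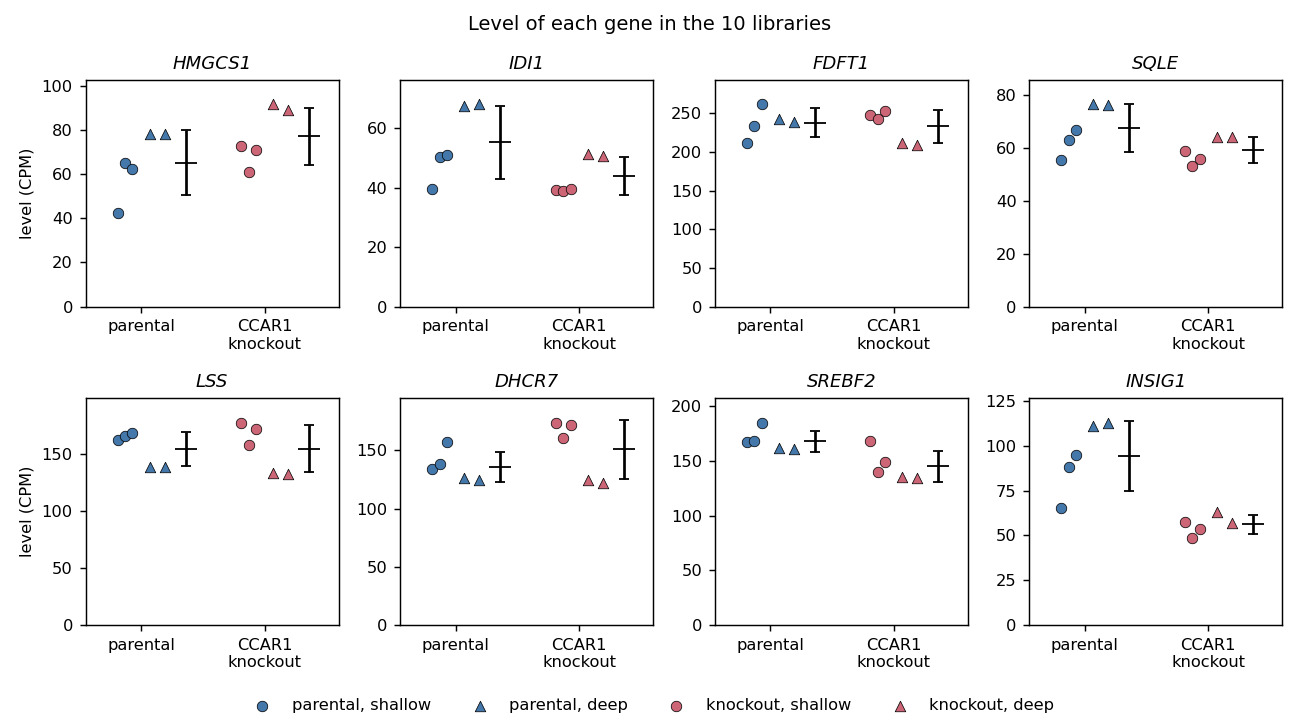
Level of each of the 8 genes in each library (vertical axis, CPM from 0, a scale of its own per panel), parental beside knockout; points are libraries, marked by depth, and the bar and whiskers are the mean and SD of 5. The genotypes are apart for INSIG1 and overlap for the other 7 genes.

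Promoter sequence is shown for the 3 genes HMGCS1, INSIG1 and SREBF2, since the first is the member with the highest fold change and the others are the 2 that fell. The stretches come from RefSeq promoter windows on GRCh38.p14, which run from 250 bases before to 50 bases after a transcript start, and are written 5′ to 3′ on the gene's strand. Capitals mark 3 motifs, searched on both strands: TCACNCCAC, a consensus of the sterol regulatory element that SREBPs bind; CCAAT, bound by NF-Y; and GGGCGG, bound by Sp1. NF-Y and Sp1 are known partners of SREBPs. ATTGG is CCAAT, and CCGCCC is GGGCGG, on the other strand.
HMGCS1 (chr5:43313513-43313635, minus strand): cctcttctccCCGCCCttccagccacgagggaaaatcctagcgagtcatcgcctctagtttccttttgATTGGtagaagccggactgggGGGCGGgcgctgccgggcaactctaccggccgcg
INSIG1 (chr7:155297635-155297775, plus strand): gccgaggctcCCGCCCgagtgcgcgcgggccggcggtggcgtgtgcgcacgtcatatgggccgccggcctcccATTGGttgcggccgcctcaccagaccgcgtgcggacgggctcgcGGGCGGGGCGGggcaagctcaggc
SREBF2 (chr22:41832962-41833078, plus strand): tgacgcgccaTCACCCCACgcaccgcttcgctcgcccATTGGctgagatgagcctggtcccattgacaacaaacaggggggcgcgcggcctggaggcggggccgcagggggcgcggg
In the INSIG1 stretch the last run of capitals holds 2 overlapping copies of GGGCGG. Among these 3 stretches the sterol regulatory consensus was found in that of SREBF2, 133 bases before the start, with CCAAT on the other strand 106 bases before it. The reference table held 10 windows for 6 of the 8 genes, with no entry for SQLE and FDFT1. TCACNCCAC was in 1 of those 10 windows (1.13% of all 35116 windows in the table), CCAAT in 7 (34.6% of all) and GGGCGG in 9 (45% of all). A match describes the letters only, and sterol regulatory elements vary beyond this consensus.

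The early steps lead from acetyl-CoA to the 5-carbon isoprenoids. HMGCS1 (ENSG00000112972.15, chromosome 5, 43289395 to 43313512, minus strand), the cytosolic synthase that makes HMG-CoA, was at 42.5, 65.2, 62.3, 78.6 and 78.5 CPM in parental replicates 1 to 5 and at 72.9, 61.1, 71.2, 92.0 and 89.5 CPM in knockout replicates 1 to 5. The groups overlapped, with parental replicate 1 lowest of all 10 libraries. The log2 fold change was 0.24 (SE 0.174, 95% interval -0.14 to 0.63, edgeR adjusted p = 0.325), so the interval holds both a small reduction and an increase. Within the deep libraries alone both knockout values exceeded both parental values and HMGCS1 was called higher (0.19, adjusted p = 3.02e-06), and within the shallow libraries it was not (0.27, adjusted p = 0.296).

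IDI1 (ENSG00000067064.13, chromosome 10, 1039152 to 1049170, minus strand) encodes the isomerase that interconverts the 2 activated isoprenoid units. Its parental replicates 1 to 5 were at 39.7, 50.5, 51.0, 67.6 and 68.2 CPM and its knockout replicates 1 to 5 at 39.3, 38.8, 39.6, 51.3 and 50.8 CPM. Deep libraries were higher than shallow ones in both genotypes, and within each depth every knockout library was below every parental library. Over all 10 libraries the log2 fold change of -0.33 did not pass (SE 0.159, 95% interval -0.69 to 0.02, edgeR adjusted p = 0.134). With the replicate number as a block it was -0.32 and was called (adjusted p = 0.000963), as it was among the shallow (-0.27, adjusted p = 0.0151) and the deep libraries (-0.43, adjusted p = 2.21e-10). Leaving out parental replicate 1, the lowest parental library, also gave a call (-0.43, adjusted p = 0.0381). After subtracting the chromosome 10 median the value was -0.16 (adjusted p = 0.514). The close paralog IDI2 lies beside IDI1, and how reads shared by the pair were divided is uncertain.

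The middle steps make and close squalene. FDFT1 (ENSG00000079459.14, chromosome 8), squalene synthase, was at 211, 234, 262, 242 and 239 CPM in parental replicates 1 to 5 and at 248, 243, 253, 211 and 209 CPM in knockout replicates 1 to 5. The knockout libraries split by depth here, the 3 shallow ones lying within the parental range and the 2 deep ones at or below its lower end. Its log2 fold change was -0.03 (SE 0.08, 95% interval -0.21 to 0.15, edgeR adjusted p = 0.832); it was 0.07 among shallow (adjusted p = 0.436) and -0.21 among deep libraries (adjusted p = 1.02e-06), and the difference between the depths did not pass (interaction -0.27, SE 0.0956, adjusted p = 0.178).

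SQLE (ENSG00000104549.12, chromosome 8), squalene epoxidase, a rate-limiting oxygenase of the pathway, was at 55.3, 63.1, 66.9, 76.6 and 76.1 CPM in parental replicates 1 to 5 and at 58.7, 53.1, 55.8, 64.3 and 64.0 CPM in knockout replicates 1 to 5. Parental replicate 1 fell inside the knockout range and the other parental libraries lay at its upper end or above it. The log2 fold change was -0.19 (SE 0.101, 95% interval -0.42 to 0.03, edgeR adjusted p = 0.174). With the replicate block the same value was called (-0.19, adjusted p = 0.0135). It was called among the deep libraries (-0.27, adjusted p = 3.32e-08) and not among the shallow ones (-0.15, adjusted p = 0.0731), and after subtracting the chromosome 8 median of -0.08 it was -0.12 (adjusted p = 0.441).

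LSS (ENSG00000160285.15, chromosome 21, 46188141 to 46228824, minus strand), lanosterol synthase, closes the sterol rings. It was at 163, 166, 169, 139 and 139 CPM in parental replicates 1 to 5 and at 178, 158, 172, 134 and 133 CPM in knockout replicates 1 to 5. The difference between shallow and deep libraries exceeded that between genotypes, whose means were 155 ± 14.8 and 155 ± 20.8 CPM (SD, n = 5 each). The 95% interval of the log2 fold change ran from -0.23 to 0.23 (edgeR adjusted p = 0.994). Among deep libraries, 2 of each genotype that were nearly alike, it was called at -0.07 (adjusted p = 0.0109).

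DHCR7 (ENSG00000172893.18, chromosome 11, 71428193 to 71452868, minus strand), the reductase of the last step of one branch to cholesterol, was at 134, 138, 157, 126 and 125 CPM in parental replicates 1 to 5 and at 174, 161, 172, 125 and 122 CPM in knockout replicates 1 to 5. All 3 shallow knockout libraries were above all 5 parental libraries, and both deep knockout libraries lay at the lower end of the parental range or below it. Over all libraries the log2 fold change was 0.15 (SE 0.119, 95% interval -0.11 to 0.41, edgeR adjusted p = 0.378). It was called higher among shallow libraries (0.23, adjusted p = 0.00558) and was -0.04 among deep ones (adjusted p = 0.164). The difference between the depths was -0.26 (SE 0.0844) and did not pass (adjusted p = 0.143).

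How many members were called depended on how depth entered the fit, and so did the count over all genes. The replicate block called 0 of the 8 higher and 4 lower (INSIG1, SREBF2, IDI1 and SQLE), beside 61.2% of all genes (31.1% higher and 30.1% lower). With the depth range as a term DHCR7 was also called higher (0.13, adjusted p = 0.0478), giving 1 higher and 4 lower beside 64.0% (32.7% and 31.3%). The shallow libraries alone gave 1 higher and 3 lower beside 52.7% (26.5% and 26.2%) of the 18806 genes that fit tested, and the deep libraries alone 1 higher and 6 lower beside 57.0% (28.9% and 28.1%) of 26859 genes; of the 18710 of these that the fit of all libraries also tested, 71.4% were called (33.6% and 37.8%). With chromosome medians subtracted, 2 were called (INSIG1 and SREBF2), beside 33.5%. The difference in knockout effect between the depths passed edgeR's interaction test in none of the 8 genes (0 called after adjustment, 2 at an unadjusted p under 0.05, beside 0.601% of all genes called, 0.316% in the higher and 0.285% in the lower direction). INSIG1, IDI1, SQLE and SREBF2 were lower in the knockout at both depths, HMGCS1 was higher at both, and FDFT1, LSS and DHCR7 were higher among shallow and lower among deep libraries, so the direction of these last 3 is unsettled.

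**Figure D2:**
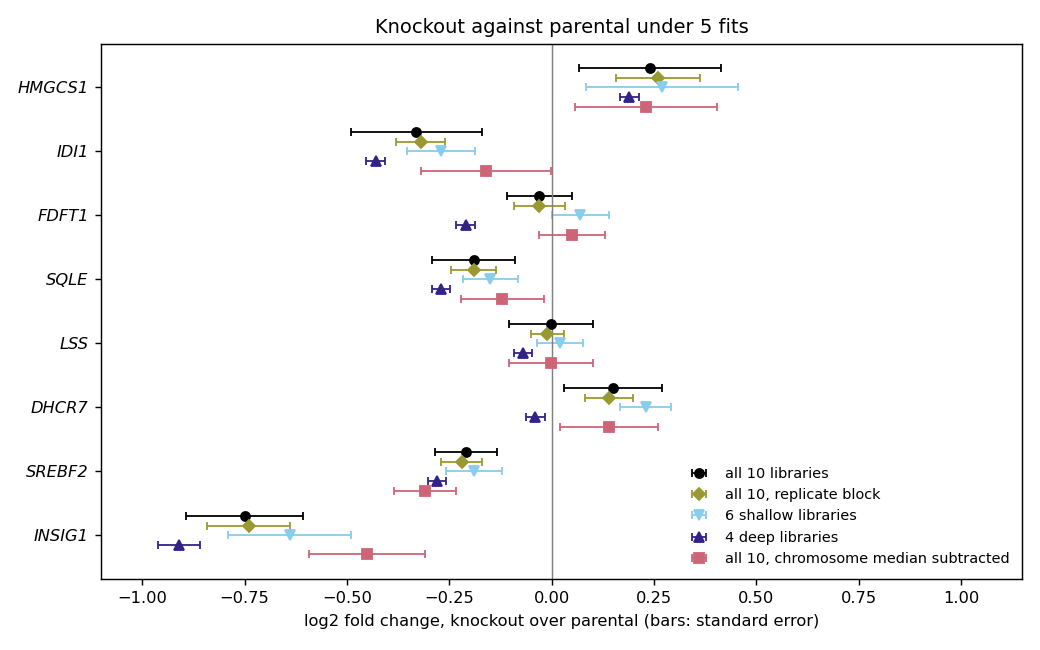
Log2 fold change, knockout over parental (horizontal axis), of each of the 8 genes under 5 fits (marker and colour; bars are standard errors). INSIG1 (from -0.91 to -0.45), SREBF2, IDI1 and SQLE lie below 0 in all 5, and HMGCS1 lies above 0 in all 5. FDFT1, LSS and DHCR7 change sides of 0 between the shallow and the deep libraries.

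The members also differed between the shallow and the deep libraries of a genotype. In parental cells HMGCS1, SQLE, INSIG1 and IDI1 were higher in both deep libraries than in all 3 shallow ones, and LSS, DHCR7 and SREBF2 were lower. In knockout cells HMGCS1, SQLE and IDI1 were higher in both deep libraries, and FDFT1, LSS, DHCR7 and SREBF2 lower. Muscle, hepatocyte and erythroid markers moved with the same split, and their part in it was not tested.

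Per kilobase of exon, which allows a rough comparison of levels between genes, FDFT1 was highest in parental cells at 45.7 ± 3.54 CPM per kb (SD, n = 5). The length used is the union of all annotated exons of a gene. It can exceed that of the transcripts expressed, so the order is approximate. DHCR7 followed at 32.7 and INSIG1 at 25.9, then SREBF2 at 22.3 and LSS at 21.4, and SQLE at 15.7, HMGCS1 at 13.9 and IDI1 at 12.7 were lowest. Of neighbours in this order, 4 pairs (INSIG1 and SREBF2, SREBF2 and LSS, SQLE and HMGCS1, HMGCS1 and IDI1) differed by no more than the larger of their SDs between libraries. In knockout cells INSIG1 was at 15.4 ± 1.49 CPM per kb, below LSS at 21.4 and SREBF2 at 19.2 and beside HMGCS1 at 16.4. These are means over both depths, and the place of INSIG1 differed between them: in parental cells it was at 22.7 CPM per kb among shallow libraries, beside LSS and SREBF2 (22.9 each), and at 30.7 among deep ones, beside DHCR7 (30.2).

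Within a genotype and depth range the 8 genes varied together. After each library was centred on the libraries of its own genotype and depth, all 28 pairs of members correlated positively, with a median Pearson r of 0.78 over 10 libraries. The same was not computed for pairs of other genes, so this is not shown to be particular to the members. SQLE and INSIG1 were most alike (r = 0.97). The largest deviations were in parental replicate 1, in which HMGCS1 was 0.388, INSIG1 0.322 and IDI1 0.237 log2 units lower than their centre. LSS was only 0.025 lower there. Without that library, an alternative chosen after seeing the data, the median r was 0.67. All 28 pairs stayed above 0, from 0.06 to 0.99. Centring on genotype alone, which leaves the depth difference in, gave a median r of -0.01, with 14 of 28 pairs above 0. The deep libraries added almost no deviation except for INSIG1 in knockout cells, and the correlations are a description over few libraries that share preparation and depth.

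**Figure D3:**
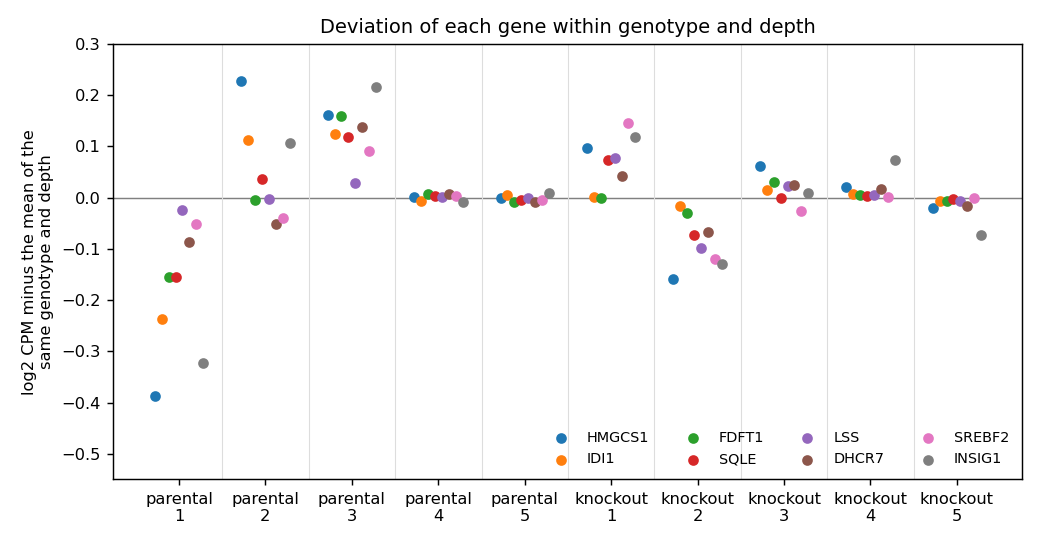
Deviation of each member's log2 CPM from the mean of the libraries of the same genotype and depth (vertical axis, log2 units), by library. Parental replicate 1 is lowest for HMGCS1 (0.388 lower), INSIG1 (0.322 lower) and IDI1 (0.237 lower), and the deep libraries lie near 0 apart from INSIG1 in the knockout.

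Among the 9072 other protein-coding genes at 10 CPM or more, the 5 whose centred pattern was most like the members' mean were RBM38 (r = 0.98), SCD (0.98), NID2 (0.97), MAFG (0.97) and TMEM135 (0.97). Without parental replicate 1 these 5 had r of 0.95, 0.92, 0.88, 0.94 and 0.89 in the same order, with ranks of 24, 71, 137, 40 and 121. None thus stayed among the 5 most alike. The ranking was not repeated without any other library. With centring on genotype alone they had 0.16, 0.62, 0.93, 0.38 and 0.29.

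Ratios between members within a library are free of library scaling and were compared after the levels had been seen. HMGCS1 was at 0.651, 0.74, 0.656, 0.706 and 0.697 of the INSIG1 level, in counts, in parental replicates 1 to 5 and at 1.26, 1.26, 1.33, 1.45 and 1.56 in knockout replicates 1 to 5. The ratio was thus below 1 in every parental and above 1 in every knockout library, at both depths and also in parental replicate 1, where both genes were low. Its log2 value rose by 0.99, from -0.54 ± 0.0776 to 0.45 ± 0.136 (SD, n = 5 each; exact permutation p = 0.00794, adjusted over 28 ratios p = 0.0278). With the chromosome medians subtracted the difference was 0.68.

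Of the 28 ratios, 8 did not overlap between the genotypes (28.6%), beside 34.5% of the ratios of all pairs among the 9380 genes at 10 CPM or more, so the count is no more than that background. They were 4 with INSIG1 (against HMGCS1, SQLE, IDI1 and FDFT1), HMGCS1 against SQLE and IDI1, and SREBF2 against LSS and DHCR7. HMGCS1 rose against SQLE from 0.952 to 1.3 and against IDI1 from 1.18 to 1.75, as means over libraries. In all, 10 ratios had an adjusted exact permutation p under 0.05. That test was not run on pairs of other genes, so this count is not shown to be particular to the members. The 28 ratios share genes and are not independent.

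The other genes of sterol metabolism were taken as 7 lists with 94 genes, of which 91 were tested. In these lists 15 genes rose and 18 fell (36.3%, beside 36.6% of all genes), with a median log2 fold change of -0.07. The share called matched the background, so what follows describes named genes rather than a change of the lists.

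Of 15 other enzymes between acetyl-CoA and cholesterol, 2 rose and 3 fell (33.3%, beside 36.6% of all genes tested). ACAT2, the cytosolic thiolase of the first step, fell from 97.9 ± 6.74 to 65.5 ± 4.12 CPM (SD, n = 5 each; log2 fold change -0.58, edgeR adjusted p = 9.35e-05); with the median of chromosome 6 (-0.32) subtracted it stood at -0.26 (adjusted p = 0.0151). LBR, a sterol reductase and lamin receptor of the nuclear membrane that is named here after its values were seen, also fell (-0.76, adjusted p = 0.00882). ERG28, a scaffold of sterol demethylation, rose from 29.4 ± 0.747 to 36.5 ± 2.85 CPM (0.31, adjusted p = 0.00359). MVK, mevalonate kinase, was called higher (0.37, adjusted p = 0.0411), but its genotypes overlapped and the call was lost in 7 of 10 fits that left out 1 library. Blocking by replicate, 4 were called higher and 6 lower (66.7% called), beside 61.2% of all genes in that fit (31.1% higher and 30.1% lower).

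**Figure D4:**
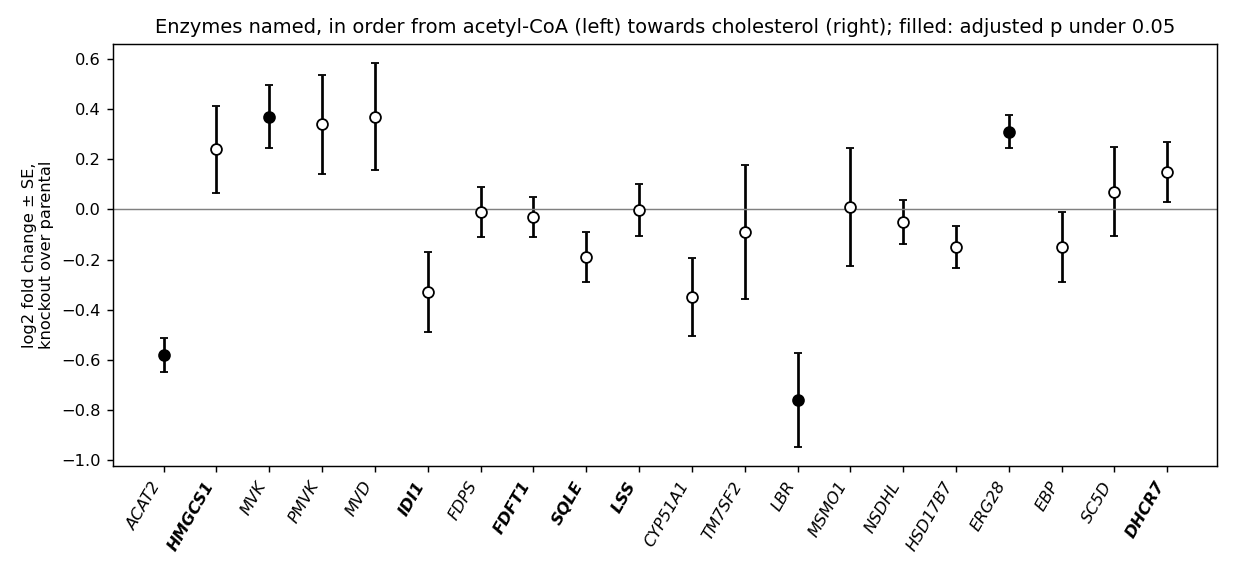
Log2 fold change of 20 enzymes of the pathway, knockout over parental (vertical axis; bars are standard errors), in order from acetyl-CoA towards cholesterol; members are in bold and filled points had an adjusted p under 0.05 in edgeR's quasi-likelihood test. ACAT2 (-0.58) and LBR (-0.76) are filled below 0, MVK (0.37) and ERG28 (0.31) above it, and the 6 members are open.

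Of 11 other genes of SREBP processing and sterol sensing, 1 rose and 1 fell (18.2%, beside 36.6% of all genes tested). SPRING1, which supports SCAP and the protease that first cuts SREBPs, fell from 65.1 ± 3.86 to 51.6 ± 3.9 CPM (-0.34, edgeR adjusted p = 0.00372). SEC24D, a coat protein of vesicles leaving the endoplasmic reticulum, was called higher (0.37, adjusted p = 0.0349), with overlapping genotypes and the call lost in 5 of 10 such fits. Sterol-regulated degradation, through which INSIG1 and its clients are removed, had 12 genes. Of these, 0 rose (0 at an unadjusted p under 0.05) and 2 fell (16.7% called, beside the same 36.6%). NPLOC4, a cofactor of the unfolding ATPase VCP, fell (-0.49, edgeR adjusted p = 0.000119) and stood at -0.20 with the median of chromosome 17 subtracted. VCP itself also fell (-0.18, edgeR adjusted p = 0.00948), a call lost with library size as the sole scaling.

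The LXR and oxysterol list, which answers to sterol excess, had 10 of 12 genes tested. Of these, 3 rose and 1 fell (40.0%, beside 36.6% of all genes tested). ABCA1, the exporter that loads cholesterol on lipoproteins, rose 3.32-fold from 1.54 ± 0.205 to 5.12 ± 0.872 CPM (log2 fold change 1.73, edgeR adjusted p = 6.69e-06). NR1H3, which encodes LXR alpha, rose from 5.83 ± 0.862 to 10.3 ± 2.18 CPM (0.81, adjusted p = 0.00272). MYLIP, a ubiquitin ligase for lipoprotein receptors and also a known LXR target, fell from 1.56 ± 0.177 to 0.784 ± 0.0714 CPM (-1.0, adjusted p = 9.51e-05). Its movement was opposite to that of ABCA1 and NR1H3. The genotypes did not overlap for any of these 3 genes, which were named for their small adjusted p, beside 30.6% of all genes tested.

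Uptake and endosomal handling of cholesterol was covered by 16 genes, of which 2 rose and 5 fell (43.8%, beside 36.6% of all genes tested). The lipoprotein receptors VLDLR (3.6 ± 0.208 to 7.33 ± 0.328 CPM; log2 fold change 1.03, edgeR adjusted p = 2.5e-06) and LRP1 (364 ± 30.7 to 538 ± 42.1 CPM; 0.56, adjusted p = 0.000228) rose. NPC1, which passes cholesterol out of late endosomes, fell from 126 ± 9.62 to 79.1 ± 8.53 CPM (-0.67, adjusted p = 0.000164). GRAMD1B, which carries plasma membrane cholesterol to the endoplasmic reticulum, fell from 24.1 ± 1.14 to 15.9 ± 1.02 CPM (-0.60, adjusted p = 4.68e-05). The genotypes did not overlap for these 4 genes, which were named for their small adjusted p, beside 30.6% of all genes tested.

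Fatty acid synthesis, which the related factor SREBP1 serves, had 15 of 16 genes tested. Of these, 4 were higher and 2 lower (40.0%, beside 36.6% of all genes tested). LPIN1, a phosphatidate phosphatase, rose from 84.1 ± 9.7 to 141 ± 12.7 CPM (0.74, edgeR adjusted p = 0.000139), and ACSS2, which makes acetyl-CoA from acetate, from 18.2 ± 0.806 to 22.0 ± 1.69 CPM (0.28, adjusted p = 0.0093). ELOVL5, a fatty acid elongase, fell from 183 ± 30.1 to 102 ± 16.1 CPM (-0.84, adjusted p = 0.000696; -0.52 with the median of chromosome 6 subtracted). ACACA, acetyl-CoA carboxylase, fell from 139 ± 16.3 to 100 ± 19.7 CPM (-0.48, adjusted p = 0.0193), a call lost when the median of chromosome 17 was subtracted (-0.19, adjusted p = 0.325) and with library size as the sole scaling.

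The isoprenoid branch, which leads from the same intermediates to prenylated proteins, dolichol and ubiquinone, had 3 of 12 genes higher and 4 lower. The share called was 58.3%, beside 36.6% of all genes tested (19.7% higher and 16.9% lower), and the median log2 fold change was -0.23. With chromosome medians subtracted, 2 were higher and 2 lower (33.3%, beside 33.5% of all genes), with a median of -0.12. Protein farnesyltransferase showed opposite changes in its subunits: FNTB fell from 21.7 ± 1.17 to 11.3 ± 0.475 CPM (-0.94, edgeR adjusted p = 1.57e-06), and FNTA rose from 57.8 ± 4.13 to 69.3 ± 3.24 CPM (0.26, adjusted p = 0.0103). DHDDS, a subunit of the dolichol-making prenyltransferase, rose from 47.3 ± 0.576 to 56.3 ± 1.87 CPM (0.25, adjusted p = 0.00262). With the replicate block 3 of the 12 were higher and 7 lower (83.3% called). In that fit 61.2% of all genes were called (31.1% higher and 30.1% lower). Without the filter on low counts, the calls of DHDDS and FNTA, and of MVK, SEC24D, VCP and ACSS2 above, were lost.

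**Figure D5:**
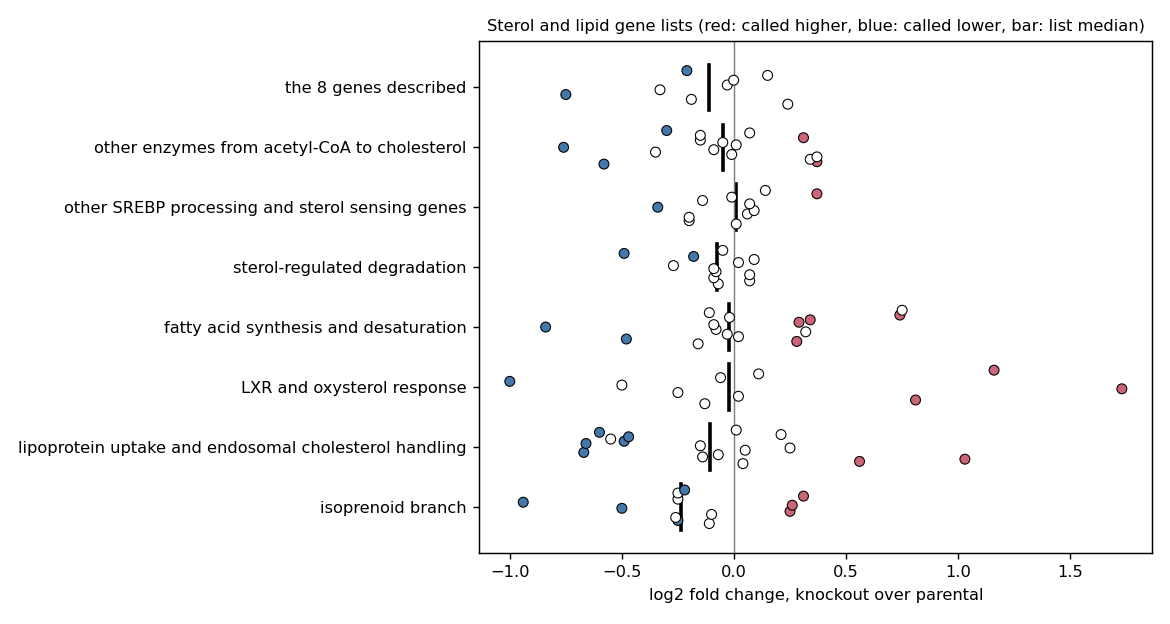
Log2 fold change of every tested gene in the 8 members and the 7 other lists (points; red called higher and blue called lower in edgeR's quasi-likelihood test), with a bar at the median of each list. Medians run from -0.23 in the isoprenoid branch to 0.01 in SREBP processing, beside 0.02 over all genes.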

How the data were processed

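RNA from 10 libraries was analysed. The deposited values are expected counts (estimated counts, not whole numbers) of genes, made by the authors with kallisto 0.48.0 on hg38, per the submitters' processing notes; annotation release, transcript-to-gene step and strand setting were not stated. Such counts can be divided between paralogs and overlapping genes. Counts were rounded to whole numbers, filtered with filterByExpr (18979 of 62700 genes kept) and scaled by TMM. Genotype was tested with edgeR 4.0.16 (R 4.3.3; quasi-likelihood, robust), Benjamini-Hochberg adjusted over all genes tested, at a threshold of 0.05. Standard errors come from the coefficient and its F statistic. Positions and exon lengths are from GENCODE annotation of GRCh38, matched by identifier for 95.1% of the genes tested. The steps were tested on simulated data.

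The members and lists were chosen with earlier results of these data known. Named are CCAR1, the 8 members, up to 4 called genes with the smallest adjusted p per list (2 in each direction where there are as many) and the 5 genes most like the members. Some genes that this rule names are not reported here; the lists' counts and medians include them. Alternatives were DESeq2 1.42.0 (test and size factors), limma-voom (limma 3.58.1), library size alone, other filters, no robust fit, leave-one-out, chromosome medians (protein-coding genes) subtracted, a depth term and a replicate block. The replicate block pairs libraries of the 2 genotypes by the labels' replicate numbers. Deviations from the genotype mean had r from 0.584 to 0.899 between same-numbered libraries. Numbers of the same depth range that differ were about as alike (0.594 to 0.901), and those across depths were opposed (-0.776 to -0.725). The r thus followed the depth range and gave no ground for pairing by number.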

Additional observations from a re-analysis of the deposited data

Results flagged for a closer look

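In 60 groups (30 named genes in each genotype), 3 held a library far from the other 4, its gap to the nearest divided by the whole range exceeding 0.71; chance alone flags about 1 group in 20. None was a member. ERG28 was at 30.7 CPM in parental replicate 5, a gap of 0.843 of the range. ACAT2 was at 86.1 CPM in parental replicate 1 (0.812) and at 72.6 CPM in knockout replicate 3 (0.711).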

How the results depend on the processing

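INSIG1 was called lower in every setting, from -0.91 to -0.45 on the log2 scale. The other values that moved are grouped by setting. With the replicate block, in a paired analysis, all genes gave 5906 higher and 5713 lower; members, 4 lower (SQLE -0.19, IDI1 -0.32); all 7 lists, 33 lower; other enzymes, 4 higher and 6 lower; SREBP processing, 2 and 4; LXR, 3 lower; uptake, 4 higher; isoprenoid, 7 lower. The block changed no other member's call.

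With a depth term, all genes gave 6200 higher and 5949 lower; members, 1 and 4 (SQLE -0.19, IDI1 -0.33, DHCR7 0.13); all lists, 37 lower; enzymes, 4 and 6; SREBP processing, 2 and 4; degradation, 5 lower; fatty acids, 4 lower; LXR, 3 lower; uptake, 4 and 8; isoprenoid, 7 lower. Deep libraries alone gave 7775 higher and 7545 lower; members, 1 and 6, median -0.24 (HMGCS1 0.19, SQLE -0.27, IDI1 -0.43, FDFT1 -0.21, LSS -0.07, DHCR7 reversed to -0.04); all lists, 24 and 50; enzymes, 4 and 10, median -0.20; SREBP processing, 4 and 4; degradation, 7 lower, median -0.14; fatty acids, 6 lower; LXR, 5 and 5; uptake, 9 lower; isoprenoid, 9 lower; the HMGCS1 to INSIG1 log2 ratio, 1.10. Shallow libraries alone gave 4931 genes lower; members, 1 higher (IDI1 -0.27, DHCR7 0.23, FDFT1 and LSS reversed to 0.07 and 0.02); all lists, 30 lower; enzymes, 4 higher; SREBP processing, 3 lower; degradation, 4 lower; LXR, 2 lower; uptake, 4 higher; isoprenoid, 7 lower.

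Library size alone left 1 member called lower, INSIG1. The calls of SREBF2 (-0.16) and CCAR1 (-0.42) were lost, and FDFT1 and LSS reversed to 0.02 and 0.05. That scaling also gave 1 lower each for degradation and fatty acids, and medians of -0.01 for degradation and -0.05 for uptake. No filter left 1 member called lower, INSIG1, and the call of SREBF2 (-0.23) was lost. It gave 8 list genes higher, with enzymes 1 higher, SREBP processing 0 higher and fatty acids 2 higher. Degradation had 1 lower, and isoprenoid 0 higher and 2 lower. A filter of 1 CPM also left 1 member called lower, INSIG1, and lost the call of SREBF2 (-0.18). FDFT1 and LSS reversed to 0.0021 and 0.03, and the degradation median was -0.04. DESeq2 size factors and limma-voom each gave 1 enzyme higher. Subtracting chromosome medians gave CCAR1 -0.31, FDFT1 reversed to 0.05, SREBP processing 2 higher, fatty acids 1 lower with a median of 0.20, isoprenoid 2 lower with a median of -0.12, and the ratio 0.68. The cause of these shifts was not tested. Scaling also moved the split of calls over all genes: 3741 higher and 3198 lower became 4271 and 2605 with library size alone, 3499 and 3499 with DESeq2 size factors, and 3794 and 2556 with chromosome medians subtracted. The members' median r was -0.01 centred on genotype alone and 0.67 without parental replicate 1.

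Leaving out each library in turn gave 1 to 2 members lower, enzymes 1 to 2 higher, SREBP processing 0 to 1 higher, fatty acids 2 to 4 higher, LXR medians of -0.17 to 0.04, and log2 fold changes of -0.43 to -0.25 for IDI1, -0.07 to 0.01 for FDFT1, -0.06 to 0.05 for LSS, -0.28 to -0.18 for SREBF2 and -0.56 to -0.42 for CCAR1. MVK was also lost with DESeq2 size factors and limma-voom.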
